A study of Mus musculus with 12 samples.

Results

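The genes described here encode the COPII coat, the protein shell that pinches transport vesicles off the endoplasmic reticulum (ER). They were chosen by symbol: Sar1a, Sar1b, Sec23a, Sec23b, Sec24a, Sec24b, Sec24c, Sec24d, Sec13 and Sec31a, 10 of the 23362 genes in the count tables, and each was found in all 12 libraries. The study measured polyadenylated RNA from C57BL/6 mouse cells at 2 stages of eosinophil development, with 3 libraries of wild-type (WT) cells and 3 of Xbp1-deficient cells (KO) at each stage. GMP are granulocyte-macrophage progenitors, the bone marrow precursors of granulocytes and monocytes. They were sorted into Trizol without culture, and TruSeq libraries were prepared. GATA2-GMP are GMP that were purified, transduced with the transcription factor GATA2, sorted again and cultured for 48 hours. Their RNA went through a SMARTer low-input kit before TruSeq. The 4 groups are called GMP WT, GMP KO, GATA2-GMP WT and GATA2-GMP KO. The Xbp1 allele, the cells it was deleted in and the animals behind each replicate are not given in the sources used here, so p-values measure the spread between these libraries, part of which may be technical.

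COPII assembly starts when a Sar1 GTPase loads GTP at the ER membrane and inserts into it. Sar1 recruits the inner coat, in which Sec23 stimulates GTP hydrolysis by Sar1 and Sec24 binds the sorting signals of cargo, and Sec13 with Sec31 then forms the outer cage. The 4 mouse Sec24 paralogs fall by sequence into a Sec24a and Sec24b pair and a Sec24c and Sec24d pair, which prefer different cargo signals. XBP1, a transcription factor made active when the ER sensor IRE1 splices its mRNA, is known as a regulator of secretory pathway genes, and developing eosinophils make large amounts of granule protein through this pathway.

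Levels are given in CPM, read counts scaled to library size, on one scale for all libraries. Library totals ran from 8219366 to 33640911 counts. Xbp1 itself was lower in every KO library than in every WT library of its stage, at 55.9 to 89.7 CPM against 131 to 153 in GMP and 99.8 to 128 against 197 to 381 in GATA2-GMP. Its log2 fold change was -1.06 in GMP (edgeR adjusted p = 0.0919) and -1.28 in GATA2-GMP (edgeR adjusted p = 0.0959), so neither passed 0.05. The GMP marker list has 8 genes, Mpo and Elane among them. Its RNA summed to 26233 to 28709 CPM in GMP WT and 22553 to 26934 CPM in GMP KO. In GATA2-GMP it summed to 6414 to 9141 CPM in WT and 4465 to 5929 CPM in KO. Mpo alone held 16847 to 19364 CPM in GMP WT. Fcgr3 (log2 fold change 3.55 in WT, 3.12 in KO) and Ms4a3 (1.93 and 0.77) rose from GMP to GATA2-GMP. Their edgeR adjusted p was at most 0.00932. The other genes of that list fell between the stages in both genotypes. The eosinophil list (8 genes found, Prg2 and Epx among them) summed to 48.4 to 243 CPM in GMP WT, 296 to 611 CPM in GMP KO, 135394 to 206668 CPM in GATA2-GMP WT and 55815 to 67873 CPM in GATA2-GMP KO. Late neutrophil markers (6 genes) summed to 26147 to 57547 CPM in GATA2-GMP, against at most 55.6 CPM in GMP. Mast cell and basophil markers (6 genes) summed to 110.2 to 135 CPM in GMP and 3840 to 12651 CPM in GATA2-GMP. Monocyte and macrophage markers (6 genes) summed to 851 to 1105 CPM in GMP and 2757 to 8239 CPM in GATA2-GMP. Within that list Ly6c2, Cd68 and Emr1 rose between the stages in both genotypes. Csf1r fell (log2 fold change -3.15 in WT and -3.24 in KO), Ccr2 was at -0.20 in WT and 0.74 in KO, and C1qa was at 0 in GATA2-GMP WT. Erythroid and megakaryocyte markers (6 genes) summed to 18.4 to 36.7 CPM in GMP WT, 15.5 to 16.4 CPM in GMP KO and at most 54.8 CPM in GATA2-GMP, and lymphoid markers to at most 40.2 CPM, with Hba-a1 at 0 in every group.

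Sec24d was the coat gene with the largest fold change between genotypes at both stages. It held 31.3, 30.2 and 65.8 CPM in the 3 GMP WT libraries and 5.43, 4.20 and 4.48 CPM in the 3 GMP KO libraries, from 733, 758 and 1317 counts against 152, 183 and 50. In GATA2-GMP it held 78.2, 41.0 and 45.3 CPM in WT and 8.34, 11.2 and 5.11 CPM in KO. All KO libraries lay below all WT libraries at both stages. The log2 fold change was -3.20 in GMP (SE 0.47, a level 0.109 times that of WT), the lowest of the 12002 genes tested there. It missed the threshold of 0.05 with edgeR's quasi-likelihood test (adjusted p = 0.0512, n = 3 per group), GMP WT 3 lying above the other WT libraries. Without GMP WT 3 the fold change was -2.73 (edgeR adjusted p = 1.65e-06). The fit with the replicate number as a block, which treats GMP libraries of the same number as pairs, gave -2.98 (edgeR adjusted p = 0.0171). The alternatives gave Sec24d in GMP an adjusted p between 5.02e-12 and 0.220. In GATA2-GMP Sec24d fell by 2.73 on the log2 scale (SE 0.37, 0.151 times the WT level, edgeR adjusted p = 0.0271), which was rank 11 among the falls of 11699 genes. That call was lost without GATA2-GMP WT 1 (adjusted p = 0.121), without KO 1 (adjusted p = 0.195) and without KO 3 (adjusted p = 0.0710), with fold changes of -2.39 to -2.74, and its adjusted p ran from 9.92e-10 to 0.195 over all alternatives. The difference between the stages in this genotype effect was 0.44 (SE 0.51, edgeR interaction adjusted p = 0.764). In bulk RNA, fewer cells that express a gene and less RNA per cell cannot be told apart.

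**Figure D1:**
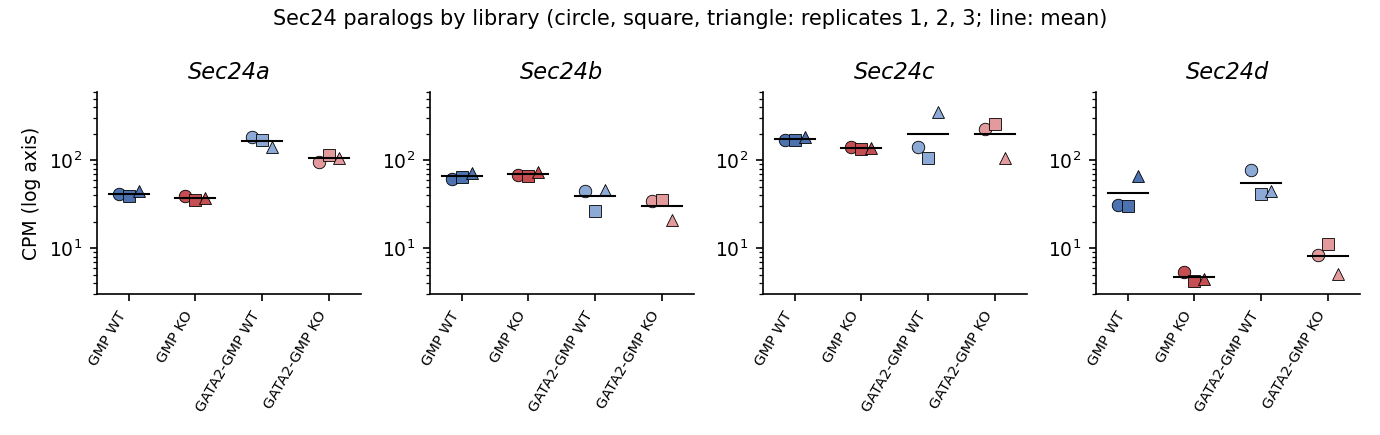
CPM of the 4 Sec24 paralogs (log scale) in each of the 12 libraries, by group. Each point is a library and each bar the mean of a group. Sec24d sits between 4.20 and 11.2 CPM in the 6 KO libraries and between 30.2 and 78.2 CPM in the 6 WT libraries.

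Sec24c, the closest relative of Sec24d, fell in GMP KO by 0.36 on the log2 scale (SE 0.059, edgeR adjusted p = 0.0035). It held 169, 172 and 186 CPM in GMP WT and 140.2, 137 and 137 CPM in GMP KO, with no overlap. In GATA2-GMP it held 142, 107 and 351 CPM in WT and 230.0, 261 and 106 CPM in KO, and both groups spread over the same range (log2 fold change -0.0050, SE 0.47, edgeR adjusted p = 0.998). The high libraries there were WT 3, KO 1 and KO 2. These were the libraries of that stage with the smallest shares of records counted as multiple alignments, 40.3, 48.4 and 48.1% against 49.1, 52.3 and 55.0% in WT 1, WT 2 and KO 3. With that share as a covariate, an alternative chosen after seeing the data, the fold change of Sec24c was 0.59 (edgeR adjusted p = 0.0147), that of Sec24d was -2.67 (adjusted p = 0.00202) and that of Sec24a was -0.70 (adjusted p = 0.0101). That model called 2061 genes where the fit without the covariate called 44, and the part of the share in the spread of Sec24c was not tested.

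Sec24a and Sec24b form the other pair, and neither passed the edgeR test between genotypes within a stage. Sec24a held 41.3, 38.9 and 45.0 CPM in GMP WT and 39.4, 35.2 and 37.4 CPM in GMP KO (log2 fold change -0.18, SE 0.079, edgeR adjusted p = 0.326). In GATA2-GMP it held 184, 172 and 142 CPM in WT and 96.7, 114 and 108 CPM in KO. Every KO library lay below every WT library, yet the fold change of -0.64 (SE 0.20) had an edgeR adjusted p of 0.207. In 1 fit over all 12 libraries it passed, at -0.64 with an edgeR adjusted p of 0.0120. That fit called 1461 genes, where the main fit called 44. The stage difference of this effect was -0.48 (SE 0.19, unadjusted p = 0.0269, edgeR adjusted p = 0.262), and without GATA2-GMP WT 3 it was -0.59 (edgeR adjusted p = 0.0478). Without that library the interaction called 1179 genes, against 11 with all libraries. Leaving out any other library did not bring Sec24a past the threshold. Sec24b was the coat gene nearest to equal in GMP, at 62.2, 64.6 and 72.3 CPM in WT and 68.8, 66.3 and 73.5 CPM in KO (log2 fold change 0.050, SE 0.079, edgeR adjusted p = 0.827). In GATA2-GMP it held 44.6, 26.7 and 46.5 CPM in WT and 34.5, 35.8 and 20.9 CPM in KO, which overlap (log2 fold change -0.36, SE 0.30, edgeR adjusted p = 0.629).

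The paralogs were compared directly by the log2 ratio of their counts within each library, which does not depend on library size. Between WT and KO, permuted within each stage, 3 of the 8 pairs tested passed 0.05, and these were the 3 that hold Sec24d. Relative to Sec24d, Sec24a was 5.70-fold higher in KO than in WT, Sec24b 6.79-fold and Sec24c 6.86-fold. Each had an exact two-sided permutation p = 0.005, the smallest that 400 arrangements can give, and p = 0.008 adjusted over 16 tests (8 pairs, genotype and stage). The ratio to Sec24d differed by 2.92, 3.15 and 2.73 on the log2 scale in GMP and by 2.11, 2.38 and 2.83 in GATA2-GMP for Sec24a, Sec24b and Sec24c in that order. Within 1 stage the smallest exact p is 0.1, and each of these 6 differences had it. The ratio among the other paralogs moved less: the genotype difference was -0.25 for Sec24a to Sec24b (adjusted permutation p = 0.335), -0.27 for Sec24a to Sec24c (adjusted permutation p = 0.683) and -0.014 for Sec24b to Sec24c (adjusted permutation p = 0.975). Within GMP these ratios did not overlap between genotypes, at differences of -0.23, 0.19 and 0.42 in that order (exact permutation p = 0.1 each), and in GATA2-GMP they overlapped, at -0.27, -0.72 and -0.45. With libraries of the same number paired, the smallest p is 0.03125 and the adjusted p of the Sec24d pairs was 0.05, so none passed.

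Divided by exon length, Sec24d held 16.5 ± 5.55% (SD, n = 3) of the summed Sec24 RNA in GMP WT and 2.60 ± 0.31% in GMP KO. In GATA2-GMP it held 18.8 ± 7.96% in WT and 3.47 ± 0.29% in KO. By this measure Sec24c had the largest share in every group. It held 60.4 ± 4.38% in GMP WT, 65.3 ± 0.96% in GMP KO, 51.7 ± 16.3% in GATA2-GMP WT and 70.4 ± 7.90% in GATA2-GMP KO. The shares depend on the exon lengths used, 10703 bases for Sec24a and 4515 for Sec24c, and the annotation behind the counts is not given. In undivided counts Sec24a exceeded Sec24c in GATA2-GMP WT 1 (2377 against 1842), WT 2 (2741 against 1709) and KO 3 (1433 against 1411). Sec24c had more counts in the other libraries. Sec24b held 17.1 ± 0.85% in GMP WT and 24.7 ± 0.998% in GMP KO, and Sec24a 6.04 ± 0.41% and 7.44 ± 0.27%. The sum of the 4 paralogs per kilobase was 64.9 ± 8.38 CPM in GMP WT and 46.8 ± 1.05 CPM in GMP KO, with no overlap between the groups. In GATA2-GMP the sum was 80.6 ± 28.0 CPM in WT and 61.1 ± 20.3 CPM in KO, and those groups overlapped.

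**Figure D2:**
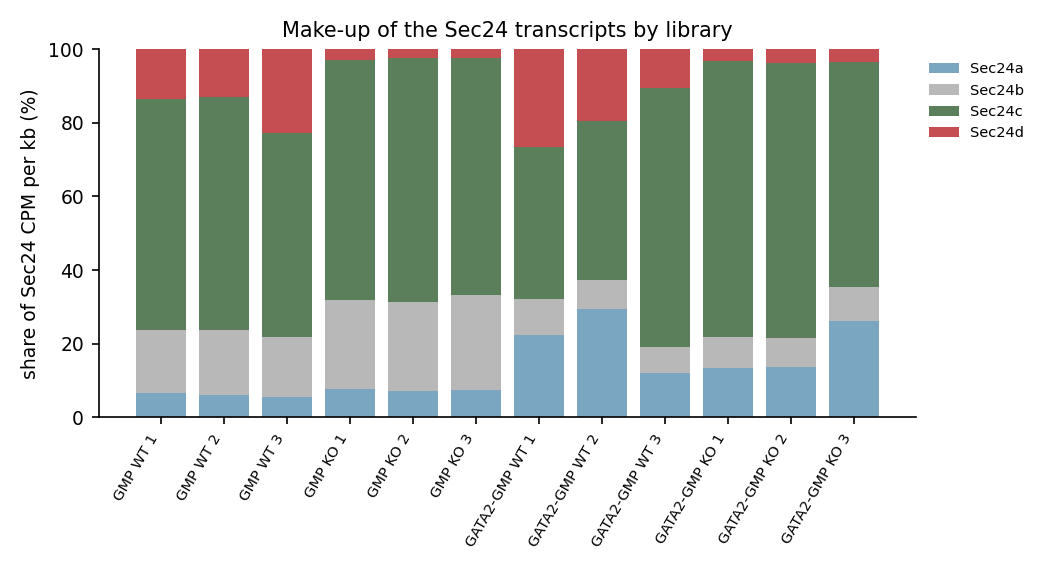
Share of each Sec24 paralog in the summed Sec24 level per kilobase of exon (percent), by library. Each stacked bar is a single library, and its segments are the paralogs. The share of Sec24d is 2.39 to 3.76% in the KO libraries and 10.6 to 26.5% in the WT libraries.

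The promoters of Sec24d, its relative Sec24c and Sec24b are shown for the motif known to be bound by XBP1 and related factors. RefSeq promoters (build GRCm38.p6) cover 250 bases before each start, and all 10 coat genes matched, with 12 promoters. Sequence is given 5′ to 3′ on the strand of the gene for the 100 bases nearest the start, with matches to TGACGTG or GCCACGT, on either strand, in capitals. The windows are chr3:130060908-130061007 (minus strand) for Sec24b, chr14:20674221-20674320 (plus strand) for Sec24c and chr3:123267396-123267495 (plus strand) for Sec24d.
Sec24b: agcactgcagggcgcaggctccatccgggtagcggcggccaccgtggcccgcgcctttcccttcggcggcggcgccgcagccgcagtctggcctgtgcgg
Sec24c: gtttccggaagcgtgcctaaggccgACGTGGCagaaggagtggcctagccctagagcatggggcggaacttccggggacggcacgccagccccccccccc
Sec24d: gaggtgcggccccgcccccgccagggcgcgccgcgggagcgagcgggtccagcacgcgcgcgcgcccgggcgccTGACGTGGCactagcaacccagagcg
Matched to mm9, the RefSeq starts of Sec24c and Sec24d were the outermost starts of GENCODE vM1, while that of Sec24b lay 646 bases inside the gene. The only RefSeq window of Sec24a lay 6800 bases inside the gene as GENCODE vM1 annotates it, so it is not shown, and the search says nothing of the outer start of Sec24a. A further window each of Sec23b (8670 bases) and Sec31a (6211 bases) also lay inside.
Within the 250 bases, TGACGTG, the core of the unfolded protein response element, was present in 1.65% of 32851 promoters and, of the coat genes, in Sec24d, 26 to 20 bases before the start. GCCACGT was present in 2.02% of promoters and in those of Sec24d (24 to 18 bases before the start), Sec24c (75 to 69) and Sar1a (158 to 152). In Sec24d these letters overlap as TGACGTGGC, a joined form looked for after the match was seen, which 52 promoters (0.158%) held. The ER stress element (CCAAT, then CCACG after 9 bases of any kind, 0.113% of promoters), its second form (ATTGG, then CCACG after 1 base, 0.0304%) and the cyclic AMP element TGACGTCA (1.55%), each searched on both strands, had no match in the windows searched for the coat genes. The shorter CCACG, contained in several of these motifs, was in 28.3% of promoters and in those of Sar1a, Sec24b, Sec24c, Sec24d and Sec31a. A match describes letters and is not a measured binding site.

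Sec23a and Sec23b, the GTPase-activating subunits, fell together in GMP KO. Sec23a held 41.5, 41.0 and 38.7 CPM in GMP WT and 30.9, 30.3 and 26.0 CPM in GMP KO (log2 fold change -0.48, SE 0.069, edgeR adjusted p = 0.00134). Sec23b held 111, 108 and 113 CPM in WT and 82.8, 85.3 and 76.6 CPM in KO (log2 fold change -0.45, SE 0.054, edgeR adjusted p = 0.000421). Both gaps were wider than the spread within either group. In GATA2-GMP Sec23a held 103 to 141 CPM in WT and 102 to 122 CPM in KO, and Sec23b 208 to 324 CPM and 202 to 267 CPM. The log2 fold changes there were -0.11 (SE 0.21, edgeR adjusted p = 0.843) and -0.098 (SE 0.25, edgeR adjusted p = 0.894). The ratio of Sec23a to Sec23b differed between genotypes by -0.036 on the log2 scale (exact permutation p = 0.625, adjusted p = 0.714). The interaction gave 0.36 for Sec23a (SE 0.20, edgeR adjusted p = 0.451) and 0.34 for Sec23b (SE 0.25, edgeR adjusted p = 0.602), so a difference between the stages was not shown.

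The Sar1 GTPases and the outer coat did not pass the test between genotypes at either stage. Sar1a held 117, 118 and 123 CPM in GMP WT and 101, 111 and 101 CPM in GMP KO (log2 fold change -0.21, SE 0.056, edgeR adjusted p = 0.0756). Sec31a, the large subunit of the cage, held 201, 189 and 216 CPM in WT and 183, 162 and 169 CPM in KO (log2 fold change -0.25, SE 0.069, edgeR adjusted p = 0.0807). With the replicate number as a block both were past the threshold in GMP, at adjusted p = 0.0135 for Sar1a and 0.00338 for Sec31a. Sar1b held 48.4 to 54.8 CPM in GMP WT and 43.0 to 50.6 CPM in GMP KO by the lowest and highest library. Sec13, which also serves in the nuclear pore and in GATOR2, a regulator of mTORC1, held 96.3 to 107 CPM in WT and 91.3 to 97.9 CPM in KO. The ranges of Sar1b, Sec13 and Sec24a overlapped on this common scale, but on the scale of the GMP fit all their KO values were below all WT values. Sar1b and Sec13 did not pass the test (log2 fold changes -0.16 and -0.12, edgeR adjusted p = 0.297 and 0.337). In GATA2-GMP Sar1a held 159, 171 and 147 CPM in WT and 123, 138 and 128 CPM in KO, with no overlap (log2 fold change -0.29, SE 0.19, edgeR adjusted p = 0.527). Sec31a held 155 to 253 CPM in WT and 101 to 163 CPM in KO there (-0.47, SE 0.27, edgeR adjusted p = 0.469), and Sec13 308 to 412 CPM and 262 to 369.7 CPM (-0.28, SE 0.24, edgeR adjusted p = 0.634). Sar1b held 171 to 342 CPM in WT and 186 to 334 CPM in KO (-0.25, SE 0.34, edgeR adjusted p = 0.779). These last 3 genes overlapped between genotypes.

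**Figure D3:**
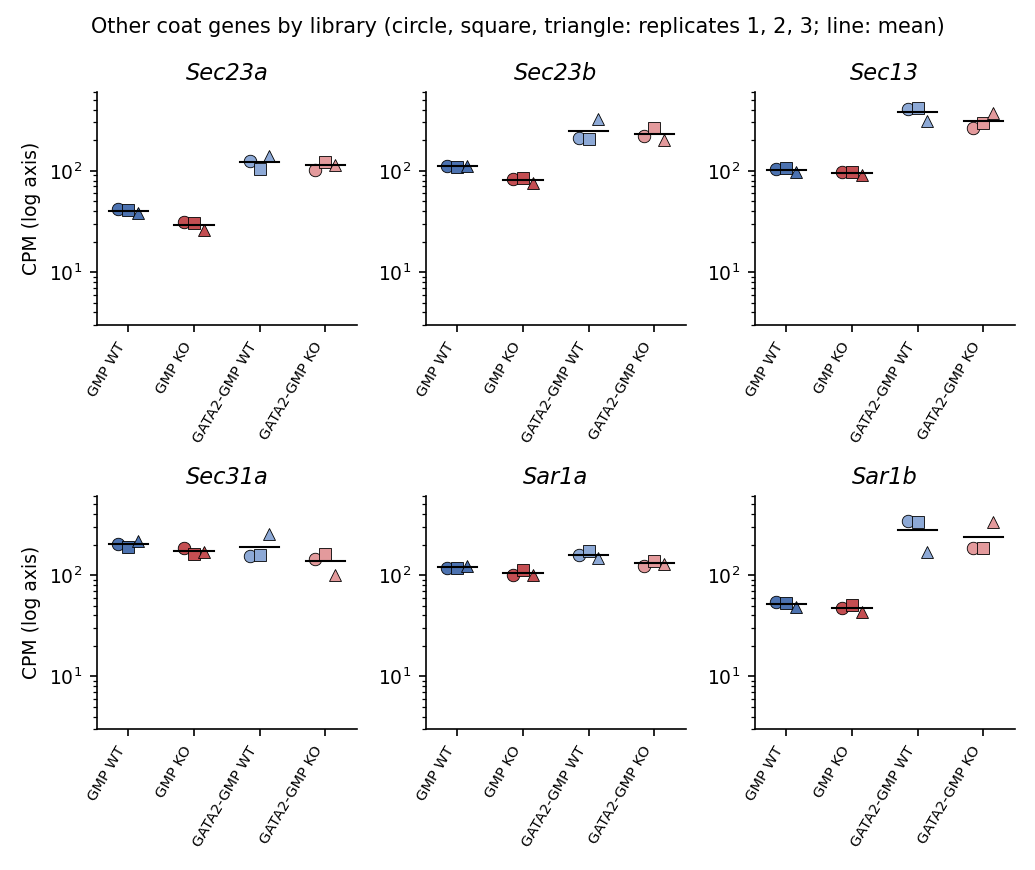
CPM (log scale) of the Sar1, Sec23, Sec13 and Sec31 genes in each of the 12 libraries, by group. Each point is a library and each bar the mean of a group. Sec23a and Sec23b are lower in all GMP KO libraries than in all GMP WT libraries, and Sar1b and Sec13 are higher in all GATA2-GMP libraries than in all GMP libraries.

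Counted over the coat in GMP, 3 of 10 genes fell (Sec23a, Sec23b and Sec24c) and none rose by edgeR's test, where 2.52% of all genes tested fell and 0.658% rose. At an unadjusted p under 0.05, 9 genes were lower and 0 higher, where 7.69% of all genes were lower. DESeq2 called 5 lower and 0 higher, where it called 3.03% of all genes lower. In 9 of the 10, all but Sec24b, every KO library lay below every WT library, on the scale of that fit, which held for 10.7% of genes. The median log2 fold change was -0.23 over the coat and 0.0058 over all genes. The replicate block called 6 of the 10, with Sec24d, Sec31a and Sar1a added, and 1 fit over all 12 libraries called 1, Sec24d. Over all genes the block called 568 lower and 396 higher, and that 1 fit 16 lower and 1 higher. The main fit called 302 lower and 79 higher. In GATA2-GMP 1 of 10 fell, Sec24d, where 0.274% of all genes fell and 0.103% rose. Sec24a, Sec24d and Sar1a had every KO library below every WT library, as had 12.2% of genes, and the median was -0.29 over the coat and -0.0050 over all genes. The interaction called 0 of 10 with edgeR and 0 with DESeq2, where edgeR called 0.0859% of all genes, and 1 coat gene, Sec24a, had an unadjusted p under 0.05, as had 14.9% of all genes. In GATA2-GMP the summed eosinophil markers and the summed GMP markers (given above) were both lower in every KO library than in every WT library. Among the GMP markers Kit went the other way there, at 1.67 with every KO library higher (edgeR adjusted p = 0.162). In GMP the eosinophil sum was higher in every KO library and the erythroid and megakaryocyte sum lower. The GMP marker sums overlapped between genotypes in GMP. Elane, neutrophil elastase, was the only gene of that list called in GMP, falling by 1.18 on the log2 scale (SE 0.069, edgeR adjusted p = 1.01e-05). Prtn3 (-0.31), Cd34 (-0.28) and Mpo (-0.10) were below 0 without passing. Ctsg (0.041), Kit (0.034), Fcgr3 (0.0038) and Ms4a3 (0.14) were above 0. The part of these markers in the coat differences was not tested.

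**Figure D4:**
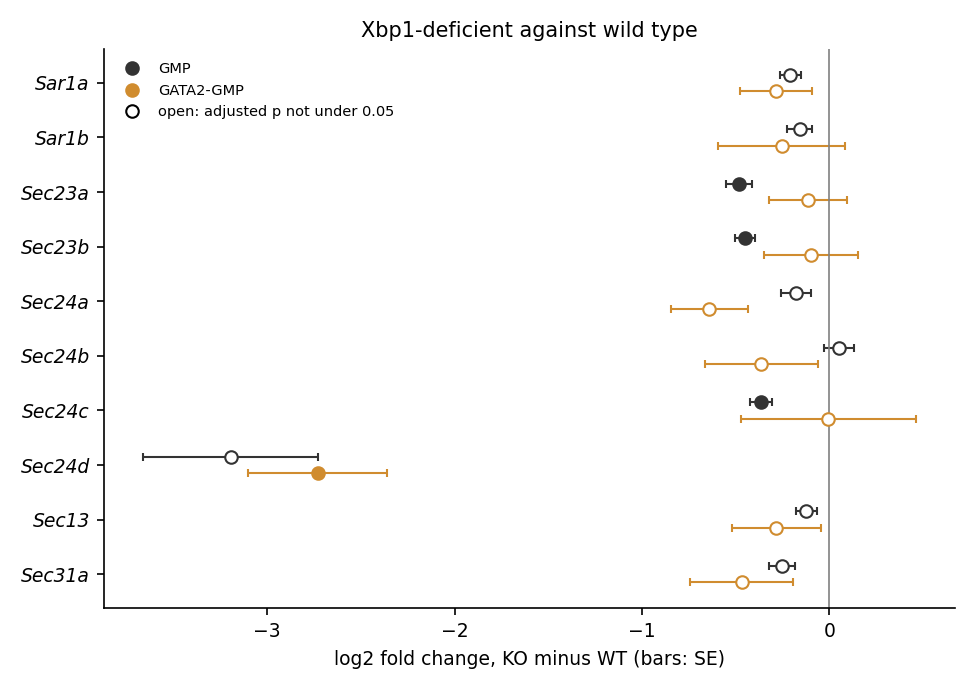
Log2 fold change of KO against WT for the 10 coat genes in GMP and in GATA2-GMP, with bars for the SE and open points where the edgeR adjusted p is not under 0.05. Sec24d stands at -3.20 and -2.73 and the other genes lie between -0.64 and 0.050.

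Genes that act beside the coat were counted from lists written from general knowledge. Of 40 tested genes of ER exit sites and Golgi entry, 11 fell in GMP and 0 rose (edgeR), with a median of -0.091. Of all genes tested in GMP, 2.52% fell and 0.658% rose by edgeR, and DESeq2 called 3.03% lower. Those with the largest falls were Creb3l2, a transcription factor known to act on Sec23a (-2.94, edgeR adjusted p = 0.0101), and Bet1, a SNARE of the fusion step (-0.86). Next came the cargo receptors Surf4 (-0.73) and Lman1 (-0.59), the tether Uso1 (-0.61), Yif1a (-0.41), Yipf5 (-0.37) and the SNARE Stx5a (-0.29), with adjusted p of at most 0.0356. Leaving out 1 library lowered the count to between 6 and 9, 1 fit over all libraries gave 1, DESeq2 gave 12 and the replicate block 15. Of the 12 genes of the COPI coat, which carries vesicles back from the Golgi, 8 fell and 0 rose, with a median of -0.28, among them Cope (-0.60), Arf4 (-0.44) and Arcn1 (-0.40). Of 12 partners of Sec13 in the outer ring of the nuclear pore and in GATOR2, 0 were called by edgeR and 0 by DESeq2. At an unadjusted p under 0.05 there were 0, where 7.69% of all genes were lower, and the median was 0.0017. In GATA2-GMP edgeR called 0 genes of each of these lists. There 8 genes of the ER exit list and 1 of the COPI list were lower at an unadjusted p under 0.05, as were 8.31% of all genes, and 2 partners of Sec13 were higher, as were 6.59%. DESeq2 called 4, 0 and 0 lower in that order, and 2.62% of all genes. Medians there were -0.26, -0.24 and 0.22.

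Between the stages the coat changed in both directions, although stage, transduction, culture and library kit cannot be told apart here. Sar1b rose most in WT, from 54.8, 53.3 and 48.4 CPM in GMP to 342, 332 and 171 CPM in GATA2-GMP (log2 fold change 2.44, SE 0.28, edgeR adjusted p = 0.000132). Sec24a rose too, with 38.9 to 45.0 CPM in GMP WT and 142 to 184 CPM in GATA2-GMP WT (log2 fold change 1.997, SE 0.17, edgeR adjusted p = 2.54e-05). Sec13 rose, with 96.3 to 107 CPM in GMP WT and 308 to 412 CPM in GATA2-GMP WT (1.88, SE 0.18, edgeR adjusted p = 4.77e-05). Sec23a (1.61, SE 0.16) and Sec23b (1.17, SE 0.21) also rose, with edgeR adjusted p of 6.87e-05 and 0.00133. For these 5 genes every GATA2-GMP WT library was above every GMP WT library, which held for 36% of all genes. Sar1a was higher by 0.42 (SE 0.14, edgeR adjusted p = 0.0273), a call that was lost under upper quartile scaling (0.24, adjusted p = 0.178), without a filter on low counts (adjusted p = 0.0973), with the block (adjusted p = 0.0796) and without any 1 of the GMP WT libraries (adjusted p up to 0.130). Sec24b fell by 0.75 (SE 0.23, edgeR adjusted p = 0.0183), and its adjusted p was 0.0653 without GMP WT 3. Sec24d (0.38, SE 0.37), Sec24c (0.19, SE 0.40) and Sec31a (-0.090, SE 0.22) did not pass the test in WT, at edgeR adjusted p of 0.388, 0.683 and 0.728. Without GATA2-GMP WT 3, the library high in both, Sec24c (-0.40, edgeR adjusted p = 0.0241) and Sec31a (-0.27, edgeR adjusted p = 0.0319) were called lower.

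In KO cells the same stage contrast gave 7 higher and 1 lower of 10. Sar1b (2.33), Sec23a (1.97), Sec13 (1.70), Sec24a (1.52) and Sec23b (1.51) rose, each with an edgeR adjusted p of at most 2.63e-05. Sec24b fell by 1.18 (SE 0.21, edgeR adjusted p = 0.000617), with 66.3 to 73.5 CPM in GMP KO and 20.9 to 35.8 CPM in GATA2-GMP KO. Sec24d was higher by 0.81 (SE 0.30, edgeR adjusted p = 0.0321) and Sar1a by 0.33 (SE 0.12, edgeR adjusted p = 0.0362). The Sec24d libraries overlapped between the stages, and leaving out 1 library moved its adjusted p up to 0.118 and that of Sar1a up to 0.158. With all libraries kept, the call of Sec24d was lost with upper quartile scaling (adjusted p = 0.0669) and in 1 fit over all libraries (adjusted p = 0.0655). That of Sar1a was lost with upper quartile scaling (adjusted p = 0.188), no filter (adjusted p = 0.259) and the block (adjusted p = 0.0830). Sec24c was at 0.53 (edgeR adjusted p = 0.115, and 0.81 with adjusted p = 3.34e-06 without GATA2-GMP KO 3) and Sec31a at -0.32 (edgeR adjusted p = 0.134, and -0.48 with adjusted p = 0.0368 under upper quartile scaling, -0.48 with adjusted p = 0.0452 without GATA2-GMP KO 2). In WT 6 of 10 rose and 1 fell, where 34.1% of all genes rose and 36.4% fell, and in KO 38.6% of all genes rose and 40% fell. The median was 0.79 over the coat and -0.092 over all genes in WT, and 1.16 and -0.055 in KO. Upper quartile scaling moved the median of all genes to -0.28 in WT and -0.20 in KO, and Sar1b, Sec24a, Sec13, Sec23a and Sec23b rose under it in WT and in KO.

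**Figure D5:**
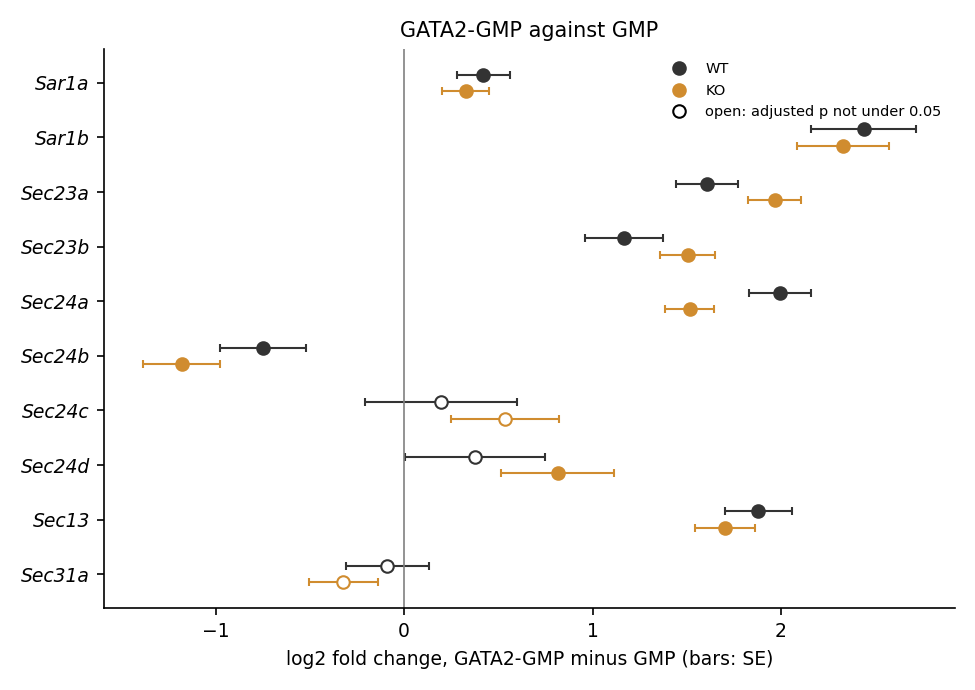
Log2 fold change of GATA2-GMP against GMP for the 10 coat genes in WT and in KO, with bars for the SE and open points where the edgeR adjusted p is not under 0.05. Sar1b is at 2.44 and 2.33, and Sec24b at -0.75 and -1.18 is the coat gene that fell in both.

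The stages also differed in the balance of paralogs, where 7 of the 8 pairs passed the exact permutation test (each p = 0.005, adjusted p = 0.008). By edgeR's stage test in WT, 34.1% of all genes rose and 36.4% fell. Ratios of other gene pairs were not tested, so no share over all pairs can be set beside this count. Stage and library kit cannot be told apart in these ratios either. Sec24a gained on Sec24b by 2.76 on the log2 scale, on Sec24c by 1.54 and on Sec24d by 1.17. Sec24b lost to Sec24c by a log2 ratio difference of -1.22 and to Sec24d by -1.59. The ratio of Sec24c to Sec24d differed by -0.36 (adjusted permutation p = 0.387). Sec23a gained 0.47 on Sec23b, and Sar1a to Sar1b changed by -1.95, so that Sar1a had more counts than Sar1b in GMP and fewer in GATA2-GMP on average. The mean log2 ratio of Sar1a to Sar1b was 1.20 ± 0.13 in GMP WT and -0.76 ± 0.48 in GATA2-GMP WT (SD, n = 3). In GATA2-GMP Sar1b was high in WT 1, WT 2 and KO 3 (332 to 342 CPM) and lower in WT 3, KO 1 and KO 2 (171 to 187 CPM), the opposite of the libraries in which Sec24c was high. Both stage results of Sar1b hold without GATA2-GMP WT 3 or KO 3, with log2 fold changes of 1.97 to 2.79 over all libraries left out in turn.

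Levels per kilobase of exon put the coat genes in order within a group. That order depends on the exon lengths of GENCODE vM1, and the annotation behind the counts is not given. In GMP WT Sec13 was highest (61.9 ± 3.51 CPM per kilobase), followed by Sar1a (45.7 ± 1.18), Sec31a (45.3 ± 3.05), Sar1b (41.6 ± 2.65) and Sec24c (38.96 ± 2.05). Then came Sec23b (17.6 ± 0.34), Sec24b (11.02 ± 0.88), Sec24d (11.01 ± 5.25), Sec23a (8.35 ± 0.31) and Sec24a (3.90 ± 0.29). Neighbours from Sar1a to Sec24c, and from Sec24b to Sec23a, overlapped in their libraries, while Sec13, Sec23b and Sec24a stood apart from their neighbours. In GMP KO the order was the same down to Sec24b (11.6 ± 0.61), and Sec24d was last (1.22 ± 0.17), below Sec23a (6.00 ± 0.55) and Sec24a (3.49 ± 0.20). In GATA2-GMP WT the order was Sec13 (227 ± 36.0), Sar1b (224 ± 76.6), Sar1a (60.9 ± 4.54), Sec24c (44.3 ± 29.2), Sec31a (42.4 ± 12.4), Sec23b (39.2 ± 10.6), Sec23a (25.4 ± 3.88), Sec24a (15.5 ± 2.04), Sec24d (14.2 ± 5.28) and Sec24b (6.52 ± 1.82). Sec13 and Sar1b overlapped there, neighbours from Sar1a to Sec23b did, and so did Sec24a and Sec24d. In GATA2-GMP KO Sar1b (188 ± 68.0) and Sec13 (186 ± 33.1) were again highest and overlapped, and Sec24d (2.13 ± 0.79) was last. Sec31b, a Sec31 paralog outside the member list, was low, at 3.67 to 4.39 CPM in GMP and 0.309 to 1.57 CPM in GATA2-GMP.

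The count of a gene depends on where its exons lie, here in GENCODE vM1 on mm9. Sec24d lies at chr3:122970414-123068553 on the plus strand, and 323 of its 3856 exon bases overlap the 3′ end of Mettl14, an RNA methylation gene on the minus strand. Whether the authors' counting used strand is not stated, so reads from those bases cannot be assigned to one gene. Mettl14 fell in GMP by 0.66 on the log2 scale (SE 0.078, edgeR adjusted p = 0.000376), with 31.0 to 33.1 CPM in WT and 18.9 to 21.8 CPM in KO, and had -0.24 in GATA2-GMP (edgeR adjusted p = 0.777). In Sec24c 214 exon bases overlap the long noncoding RNA 6230400D17Rik, and in Sec23a 431 overlap Gm17529, both on the opposite strand. The other 7 coat genes overlap no exon of another gene. Sec24a (chr11:51505765-51577136, minus strand) and Sar1b (chr11:51577189-51605427, plus strand) are neighbours that run away from each other, with 52 bases between their outermost annotated ends, and both rose with stage. Of the 50-base windows of coat gene exons, 94.2% (Sec24a) to 100% occurred once in the genome.

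The genes most like each Sec24 paralog in pattern were found by the root mean square difference of log2 CPM, centred on each gene's mean, over the 12 libraries and 8741 genes. For Sec24b these were Nup50 (0.09997), Cep135 (0.103) and Ctdsp1 (0.113), and for Sec24a they were Cd37 (0.136), Efcab14 (0.141) and Atg5 (0.144). For Sec24c they were Agpat6 (0.174), Arfgap2 (0.176) and Copg1 (0.180), of which Arfgap2 and Copg1 belong to COPI transport. The nearest genes to Sec24d lay further off and were Lamp1, a lysosomal membrane protein (0.792), Erp44, an ER chaperone that cycles to the early Golgi (0.813), and Rnf130, a ubiquitin ligase (0.869). Lamp1 averaged 254 CPM in GMP WT, 101 CPM in GMP KO, 340 CPM in GATA2-GMP WT and 57.2 CPM in GATA2-GMP KO. The measure is not scaled to the size of a gene's changes, so it grows with them. Sec24d had the largest fall of all genes tested in GMP. Genes with a mean under 10 CPM, Creb3l2 among them, were not compared. The likenesses are descriptions over libraries that share group, depth and kit.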

How the data were processed

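The deposited files hold the authors' read counts for each gene symbol. The submitters' processing notes name mm9 as build and STAR 2.3.0, HTSeq, SAMtools 0.1.14 and DESeq as tools. The annotation, strand setting and filters are not given in the sources used here. The 5 counter rows (55.8 to 66.5% of records) were set aside, 23 gene names turned into dates were restored, and 4 that could not be were left out. No library repeated another: at least 14460 genes had unequal counts between any 2 libraries.

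Tests used edgeR 4.0.16 in R 4.3.3 (filterByExpr, TMM, glmQLFit with robust fitting, glmQLFTest) on the libraries of each comparison. P-values were adjusted by Benjamini-Hochberg across every gene in the fit, at a threshold of 0.05. The SE was taken as the size of the log2 change over the root of F. Alternatives were DESeq2 1.42.0, RLE and upper quartile scaling, no filter, a replicate block, 1 fit over all libraries and leaving out each library. CPM was scaled by TMM over all 12 libraries, while fold changes come from each comparison's own fit. CPM per kilobase used the exon union of GENCODE vM1. Paralog ratios had 0.5 added to each count and were tested by exact permutation within strata. Both kinds of test were tested on simulated data.

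Deviations from the group means of libraries with the same replicate number correlated at 0.318, 0.256 and 0.192 between genotypes in GMP. There each library correlated most with the one of its own number. In GATA2-GMP the values were -0.16, -0.31 and -0.48, and no library did so. What the numbers mark is not given, and the pairing was not tested. Promoters came from RefSeq on GRCm38.p6, and each window was placed in mm9 by an exact match of its letters. Named were all coat genes, Xbp1, at most 8 called genes of the ER exit list and 3 of each other list by size of change, and the 3 genes most like each Sec24 paralog with a mean of at least 10 CPM. Mettl14, Sec31b and Elane are named outside that rule, with their values seen. Members and lists were chosen with earlier results of these data known.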

Additional observations from a re-analysis of the deposited data

How the results depend on the processing

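Of the 10 coat genes, edgeR called 3 by genotype in GMP, against 5 with DESeq2, 6 with the replicate block, 1 in 1 fit over all 12 libraries and 3 to 4 with 1 library left out. In GATA2-GMP it called 1, against 0 with the replicate block, 2 in 1 fit over all libraries, 5 with the multiple-alignment share as a covariate (chosen after seeing the data) and 0 to 1 with 1 library left out. The interaction count of 0 was 0 to 1 with 1 library left out. The paralog pairs called went from 3 by genotype and 7 by stage to 0 and 0 with the replicate block, while their differences stayed the same. Each of those pairs had the smallest p of that paired test, 0.03125, which became 0.05 after adjustment. That test therefore cannot tell whether the pairs are weaker when paired. Over all genes, 381 calls in GMP became 964 with the block, 17 in 1 fit over all libraries and 209 to 398 with 1 library left out. In GATA2-GMP 44 became 568 (DESeq2), 294 (no filter), 3 (block), 1461 (1 fit over all libraries), 2061 (covariate) and 0 to 525 (1 library left out). The 11 interaction calls became 821 (DESeq2), 17 (RLE scaling), 40 (no filter), 0 (block) and 0 to 1179 (1 library left out). The cause of these changes in the gene counts was not tested.

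Values that changed sign were all near 0 or spread widely. In GATA2-GMP Sec24c had 0.016 with DESeq2 and with RLE scaling, 0.023 with upper quartile scaling, 0.14 with the block and 0.59 with the covariate, and -0.31 to 0.67 with 1 library left out (0.67 without WT 3, 0.30 without KO 3). Sec23b there had 0.097 with the covariate and -0.23 to 0.14 with 1 library left out. Sec24b in GMP had -0.012 without KO 3. In the interaction, with 1 library left out, Sec24d ran from -0.025 to 0.78, Sec31a from -0.38 to 0.034 and Sar1b from -0.45 to 0.039 (above 0 without GATA2-GMP WT 1, WT 2, KO 1 or KO 2). By stage in WT, Sec24c had -0.0070 with upper quartile scaling, -0.0038 with the block and -0.40 to 0.53 with 1 library left out, and Sec31a -0.27 to 0.078. With 1 library left out, the genotype difference was -0.19 to 0.12 for Sec24b to Sec24c, -0.090 to 0.025 for Sec23a to Sec23b and -0.14 to 0.10 for Sar1a to Sar1b. Of the single values recomputed with all libraries kept, 50 of 60 in GMP and 59 of 70 in GATA2-GMP kept their direction and side of 0.05. The shallowest library, GMP KO 3, had 50 counts of Sec24d, which limits its precision there.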
